A study of Mus musculus with 8 samples.

Results

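The 10 imprinted genes Peg10, Mest, H19, Igf2, Kcnq1ot1, Peg3, Gnas, Nnat, Igf2r and Meg3 were followed through 9 windows of mouse build mm9, with H19 and Igf2 sharing 1 window. Every called peak whose midpoint fell in a window was taken, which gave 88 peaks of 88367 in the 6 deposited lists. The lists come from ChIP-seq (chromatin immunoprecipitation followed by sequencing) with antibodies to the histone demethylase KDM4B, to trimethylated lysine 9 of histone H3 (H3K9me3) and to histone H3, each in 1 KO and 1 WT library. The cells were primary bone marrow-derived mesenchymal stem cells after 4 hours of osteogenic induction. KO cells came from Prx1Cre; Kdm4bf/f mice and WT cells from Prx1Cre; Kdm4bw/w mice, so both genotypes carried the Cre transgene, whose promoter is active in limb mesenchyme. The H3K9me3 and H3 samples give their genotype in full in the labels, and the KDM4B samples by KO or WT in their titles. Neither the age nor the number of mice is stated in the labels. Each group held 1 library, so no difference between genotypes has a replicate check or a test, and the intervals below are 95% exact intervals that cover counting error only. They take every peak as independent. Neighbouring peaks of 1 library are not, so the intervals are too narrow.

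Imprinted genes are expressed mainly or only from the maternal or the paternal copy, at least in some tissues. The choice is set by DNA methylation that is laid down in the germ line at control regions, and in mouse embryonic stem cells the methylated copy of such a region also carries H3K9me3, placed by the methyltransferase SETDB1 after the zinc-finger protein ZFP57 has bound the methylated hexamer TGCCGC. KDM4B removes methyl groups from this same lysine. Several of these genes regulate growth: Igf2 encodes a growth factor and Igf2r the receptor that clears it.

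Promoter sequences of RefSeq, build GRCm38.p6, matched 8 of the 10 genes by symbol, with 17 promoters in all; H19 and Peg10 were not matched. Each spans 250 bases before to 50 bases after a transcript start. They held 1 to 40 CpG dinucleotides with a median of 16, beside a median of 7 over all 32851 promoters of the table. TGCCGC was searched on both strands, so that it also reads GCGGCA, and 5 of the 17 promoters held it (2 overlapping promoters of Mest, and 1 each of Igf2, Nnat and Meg3), beside 11.6% of all promoters. The hexamer itself contains a CpG and the promoters were not matched for CpG number, so these shares do not show an enrichment of the hexamer. The 4 sequences below are shown because their windows illustrate the patterns that follow. Mest had H3K9me3 of KO cells alone, and Peg3 had H3K9me3 in both genotypes. Nnat and Igf2r had H3K9me3 of KO cells at the place of a KDM4B peak of WT cells. Gnas had this too, but its promoters, none of which held the hexamer, are not shown. The Mest promoter that starts at 30733256, also not shown, lacked the hexamer. Capitals mark the hexamer, with 2 copies in Mest and 1 in Nnat.
Mest promoter, GRCm38.p6, chr6:30737800-30738099, plus strand: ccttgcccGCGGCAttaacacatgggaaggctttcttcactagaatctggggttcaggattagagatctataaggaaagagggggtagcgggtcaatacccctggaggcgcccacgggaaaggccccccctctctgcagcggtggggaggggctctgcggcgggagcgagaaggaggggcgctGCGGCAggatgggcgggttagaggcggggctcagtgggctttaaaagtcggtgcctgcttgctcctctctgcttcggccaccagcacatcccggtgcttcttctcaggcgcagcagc
Nnat promoter, GRCm38.p6, chr2:157559828-157560127, plus strand: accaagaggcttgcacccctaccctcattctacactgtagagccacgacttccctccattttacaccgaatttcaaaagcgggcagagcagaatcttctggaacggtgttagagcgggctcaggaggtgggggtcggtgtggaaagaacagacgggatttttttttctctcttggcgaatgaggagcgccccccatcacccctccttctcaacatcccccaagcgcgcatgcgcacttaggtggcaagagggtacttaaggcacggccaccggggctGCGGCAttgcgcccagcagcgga
Igf2r promoter, GRCm38.p6, chr17:12769657-12769956, minus strand: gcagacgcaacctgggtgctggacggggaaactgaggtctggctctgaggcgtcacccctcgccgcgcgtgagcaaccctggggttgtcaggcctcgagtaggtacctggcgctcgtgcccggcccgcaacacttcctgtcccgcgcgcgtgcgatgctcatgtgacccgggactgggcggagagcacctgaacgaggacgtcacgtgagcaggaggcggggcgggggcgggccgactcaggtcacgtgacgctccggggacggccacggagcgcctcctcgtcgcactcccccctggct
Peg3 promoter, GRCm38.p6, chr7:6730370-6730669, minus strand: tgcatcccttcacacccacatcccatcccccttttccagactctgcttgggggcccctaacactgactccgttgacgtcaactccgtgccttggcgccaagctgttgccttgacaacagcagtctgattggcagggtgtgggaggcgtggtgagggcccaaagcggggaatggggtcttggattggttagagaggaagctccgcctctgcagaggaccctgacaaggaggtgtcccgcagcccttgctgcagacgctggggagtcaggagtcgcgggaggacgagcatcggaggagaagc
The Mest, Nnat, Igf2r and Peg3 promoters shown held 17, 17, 34 and 13 CpG dinucleotides. A match describes these letters only, and these positions are in another build than the peaks, so no peak was placed on a promoter. A gene table of the same build gave gene lengths, and the windows were longer than the gene in 10 of 10 cases, but where each gene lies within its mm9 window could not be checked.

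H3K9me3 was called in all 9 windows in KO cells and in the Peg3 window alone in WT cells. The windows held 75 peaks in the KO library, against 1 peak in the WT library, a ratio of 75.0 with a counting interval of 13.1 to 3001. The whole lists held 55306 peaks in the KO library, against 943 in the WT library, a ratio of 58.6 that lies inside that interval, so the difference in the windows cannot be told apart from that between the lists as wholes. For comparison, the genome was divided into tiles of each window's length: the share of tiles with at least 1 peak in the KO library ranged from 21.7% for 25 kb, the length of the Nnat window, to 43.7% for 110 kb, the length of the H19/Igf2 and Kcnq1ot1 windows. In the WT library that share was 0.865% for 50 kb, the length of the Peg3 window, and 0.473 to 1.77% over all lengths used. Because these tiles include gene-poor sequence and no mm9 gene annotation was used, imprinted genes could not be set against other genes.

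KDM4B was called in none of the windows in KO cells and in 4 of the 9 in WT cells. The windows held 0 peaks in the KO library, against 12 peaks in the WT library. With 3 peaks as the limit for a count of 0, that is at least 4-fold lower in KO cells if the WT count is taken as exact. The whole lists had a WT to KO ratio of 915, so the difference in the windows cannot be told apart from that between the lists. All 35 KDM4B peaks of the KO library, against 32017 in the WT list, lay elsewhere, and 0.0156% of 25 kb tiles and 0.0643% of 110 kb tiles held at least 1 of them. The 12 peaks lay in the windows of Gnas, Igf2r, Nnat and H19/Igf2, with 8, 2, 1 and 1 of them. The share of genome tiles with a KDM4B peak of WT cells ran from 14.2% for 25 kb to 33.2% for 110 kb. Histone H3 had 0 peaks in the windows in KO cells and 0 in WT cells, out of 28 and 38 in the lists.

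**Figure D1:**
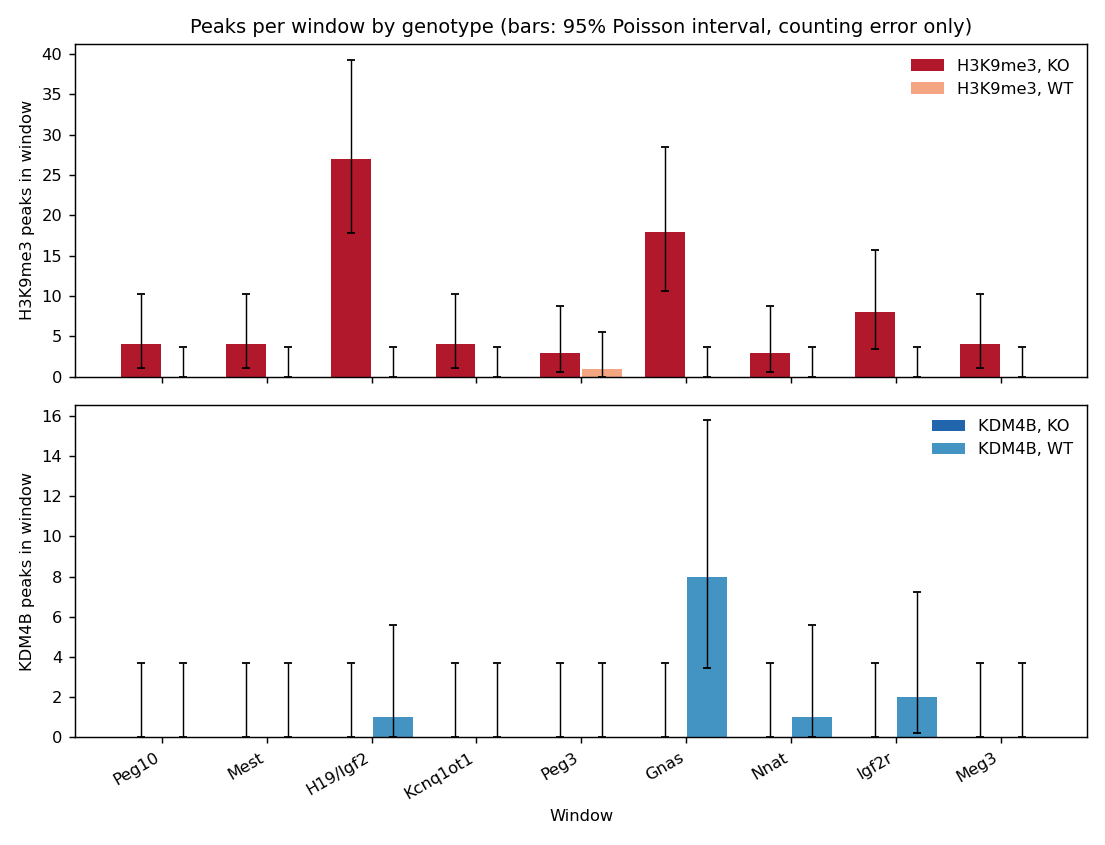
Number of called peaks in each window (vertical axis) for H3K9me3 (upper panel) and KDM4B (lower panel), KO bars left of WT bars; error bars are 95% Poisson intervals for counting error, with 1 library per group. H3K9me3 of KO cells reaches 27 peaks at H19/Igf2 and 18 at Gnas, WT H3K9me3 has 1 peak at Peg3, and KDM4B of KO cells has 0 throughout.

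The windows together were denser in H3K9me3 of KO cells than the genome as a whole, with H19/Igf2 and Gnas supplying 45 of the 75 peaks. The 630 kb of windows held 119 peaks per Mb (93.6 to 149), beside 21.5 per Mb over the span of all nuclear chromosomes. Regions of the same length directly on either side of each window held 65 peaks in 1260 kb, or 51.6 per Mb (39.8 to 65.8). More peaks than on either side were found in 7 of the 9 windows, but the share of genome tiles that exceed both neighbours was not computed. That count therefore has no baseline, and it includes Peg10, Mest, Peg3 and Nnat, with 3 or 4 peaks against 0 or 1 per side. Without the H19/Igf2 window the count was 48 peaks, or 92.3 per Mb, and without the Gnas window 57 peaks, or 104 per Mb. Without both it was 30 peaks, or 68.2 per Mb (46.0 to 97.3), an interval that overlaps that of the sides of all 9 windows. Those sides still include the 23 peaks beside H19/Igf2 and the 6 beside Gnas, so the 2 sets are not matched. The peaks were as narrow as the rest of their list, with a median width of 266 bp beside 256 bp, and 13 of 75 had a width of 199 bp, the lower limit of that list, or 17.3% (9.57 to 27.8%) beside 20.8% of all KO peaks. The WT peak was 210 bp wide, and the H3K9me3 peaks of the windows covered 22.8 kb in KO cells, against 0.210 kb in WT cells.

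**Figure D2:**
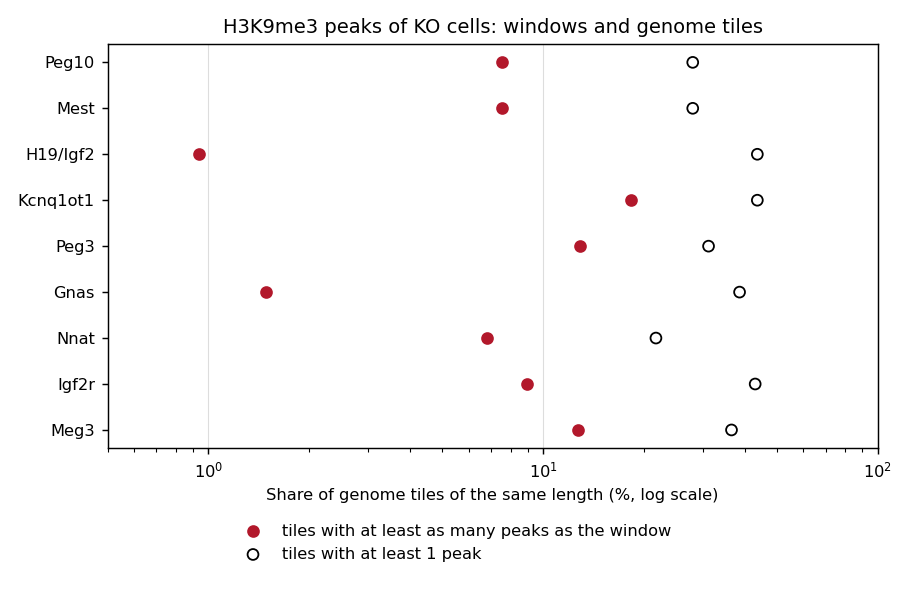
For each window (rows), the share of genome tiles of the same length, in percent on a log axis, that held at least as many H3K9me3 peaks of KO cells as the window (filled) and at least 1 such peak (open). H19/Igf2 and Gnas lie lowest, at 0.939% and 1.48%, and Kcnq1ot1 highest, at 18.3%. Among tiles of the window's own chromosome (not drawn) the filled share was higher at H19/Igf2 (1.55%), Gnas (1.75%), Nnat (9.25%), Igf2r (14.2%), Peg3 (17.2%) and Kcnq1ot1 (24.2%). It was lower there at Peg10 and Mest (4.98% each) and Meg3 (10.5%).

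The growth factor locus H19/Igf2 held the most H3K9me3 peaks of KO cells. Igf2 is expressed from the paternal copy and the noncoding RNA H19 from the maternal copy. Their window on chromosome 7, from 149750001 to 149860000, held 27 H3K9me3 peaks in KO cells (17.8 to 39.3), against 0 in WT cells. With 3 peaks as the limit for a count of 0, that is at least 9-fold more if the KO count is taken as exact. The ratio between the whole lists was 58.6. At least 27 H3K9me3 peaks of KO cells were present in 0.939% of genome tiles of 110 kb and in 1.55% of those on chromosome 7. The region of equal length on the lower-coordinate side held 22 KO peaks and that on the higher side 1, so the density did not start at the window's border. Within the window the peaks fell into runs, taken here as peaks at most 5 kb apart. The largest run, 12 peaks in 15.5 kb from 149840141 to 149855623, lay towards the higher-coordinate end. A second run of 7 peaks in 12.9 kb, from 149750690 to 149763627, lay at the lower end, and another held 4 peaks from 149783614 to 149787151. The widest peaks, of 605 bp from 149840141 to 149840745 and of 601 bp from 149844628 to 149845228, both belonged to the run of 12. The next, of 446 bp, lay from 149774467 to 149774912. KDM4B had 0 peaks in KO cells, against 1 peak in WT cells, from 149757742 to 149758060, which lay inside the lower run and 0.108 kb from its nearest H3K9me3 peak without overlapping it. The run of 12 peaks lay 82.1 to 97.3 kb from that KDM4B peak.

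The receptor locus Igf2r held fewer and more scattered peaks, and its KDM4B peaks were wide. Igf2r is expressed from the maternal copy in mouse, and its neighbour Airn is a noncoding RNA of the paternal copy that silences it. The window on chromosome 17, from 12865001 to 12970000, held 8 H3K9me3 peaks in KO cells, against 0 in WT cells. Of 105 kb tiles, 8.98% held at least as many. KDM4B had 0 peaks in KO cells, against 2 in WT cells, from 12947076 to 12949109 and from 12950126 to 12951289, with widths of 2034 and 1164 bp, and 22.2% of 105 kb tiles held at least as many. The second of them contained a whole H3K9me3 peak of KO cells, from 12950268 to 12950641, with 374 bp shared. The first ended 1.16 kb short of that same peak. The other 7 H3K9me3 peaks lay 10.9 to 43.6 kb from KDM4B, among them the widest, of 726 bp, from 12962187 to 12962912, which was also the nearest to a border. A peak of 372 bp, from 12881245 to 12881616, was the next widest after the one inside KDM4B.

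The Gnas locus carried most of the KDM4B peaks and its H3K9me3 peaks fell into 2 separate parts. Gnas encodes the alpha subunit of the stimulatory G protein, and alternative starts of the same locus give transcripts of the maternal or of the paternal copy. Its window on chromosome 2, from 174100001 to 174180000, held 18 H3K9me3 peaks in KO cells (10.7 to 28.4), against 0 in WT cells. By the same limit for a count of 0, that is at least 6-fold more if the KO count is taken as exact. KDM4B had 0 peaks in KO cells, against 8 in WT cells. Of 80 kb tiles, 1.48% held at least as many H3K9me3 peaks of KO cells and 3.04% at least as many KDM4B peaks of WT cells. On the lower-coordinate side 11 H3K9me3 peaks lay in runs of 5 and 6, from 174104868 to 174126495, all 26.2 to 47.5 kb from the nearest KDM4B peak. They included the widest of the window, 753 bp from 174125220 to 174125972, and the next, 606 bp from 174110919 to 174111524. The first peak, from 174104868 to 174105162, was the nearest to a border.

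The higher-coordinate part of the Gnas window held all 8 KDM4B peaks, between 174152677 and 174172791, together with the remaining 7 H3K9me3 peaks, none more than 3.23 kb from KDM4B. The widest KDM4B peak, 1677 bp from 174152677 to 174154353, overlapped 2 H3K9me3 peaks by 320 and 200 bp, from 174152555 to 174152996 and from 174153084 to 174153283. The peak from 174154469 to 174155369 overlapped 1 by 168 bp, from 174155202 to 174155504. That from 174170283 to 174170704 overlapped 1 by 282 bp, from 174170423 to 174170860. The other 5 KDM4B peaks overlapped none, at distances of 0.120 to 1.69 kb. They lay from 174156132 to 174156876, from 174157242 to 174157506, from 174161126 to 174161591, from 174169074 to 174170037 and from 174172555 to 174172791, with widths of 237 to 964 bp.

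The imprinted noncoding RNAs Kcnq1ot1 and Meg3 had few H3K9me3 peaks and no KDM4B peak. Kcnq1ot1 is transcribed from the paternal copy and silences its neighbours in cis. Its window on chromosome 7, from 150390001 to 150500000, held 4 H3K9me3 peaks in KO cells, against 0 in WT cells, and 18.3% of 110 kb tiles held at least as many. The regions on its lower and higher side held 11 and 10 KO peaks, more than the window itself. The peaks began at 150439006, 150474590, 150481200 and 150482365 and were 203 to 350 bp wide. Meg3 is transcribed from the maternal copy. Its window on chromosome 12, from 110750001 to 110820000, held 4 H3K9me3 peaks in KO cells, against 0 in WT cells, and here too the lower and higher sides held more, with 7 and 5. Of 70 kb tiles, 12.7% held at least 4. The Meg3 peaks began at 110750717, 110786754, 110787063 and 110801751, with widths of 225 to 354 bp. KDM4B had 0 peaks in both windows in KO and in WT cells, and its nearest WT peak lay 59.2 kb from the Kcnq1ot1 window and 521 kb from the Meg3 window.

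At Peg10 and Mest the H3K9me3 peaks of KO cells were close together and stood alone. Peg10, a paternally expressed gene derived from a retrotransposon, had 4 peaks in KO cells, against 0 in WT cells, all within 2.47 kb on chromosome 6, from 4696465 to 4698934. Mest, a paternally expressed gene for a protein of the hydrolase fold, also had 4 peaks in KO cells, against 0 in WT cells, within 5.73 kb from 30682871 to 30688601. The Peg10 peaks began at 4696465, 4697148, 4697428 and 4698736, and the Mest peaks at 30682871, 30685651, 30688098 and 30688383. The widest peaks were 492 bp at Peg10 and 290 bp at Mest, the first of each. The sides of the Peg10 window held 0 KO peaks and those of the Mest window 1, while 7.52% of 40 kb tiles held at least 4. KDM4B had 0 peaks in either window in KO and in WT cells, and the H3K9me3 peaks lay 49.1 to 51.1 kb from KDM4B at Peg10 and 39.0 to 44.5 kb at Mest.

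Peg3 was the locus with H3K9me3 in both genotypes. It encodes a paternally expressed zinc-finger protein. Its window on chromosome 7, from 6645001 to 6695000, held 3 peaks in KO cells, from 6664049 to 6664271, from 6682280 to 6682569 and from 6687180 to 6687409, and 12.9% of 50 kb tiles held at least as many. In WT cells it held 1 peak, from 6682433 to 6682642, which overlapped the second KO peak by 137 bp. Over the whole WT list 43.5% of peaks overlapped a KO peak. Elsewhere among the windows the nearest WT H3K9me3 peak lay 0.429 to 7.78 Mb away. The sides of the Peg3 window held 0 H3K9me3 peaks in KO and in WT cells, and KDM4B of WT cells was 407 kb from the window.

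Nnat combined a wide KDM4B peak of WT cells with H3K9me3 of KO cells in the smallest window. It encodes neuronatin, a small membrane protein expressed from the paternal copy. The window on chromosome 2, from 157375001 to 157400000, held 3 H3K9me3 peaks in KO cells, against 0 in WT cells, and 6.80% of 25 kb tiles held at least as many. KDM4B had 0 peaks in KO cells, against 1 in WT cells, from 157391150 to 157393303. At 2154 bp it was the widest KDM4B peak of all the windows, and it contained the whole of the widest H3K9me3 peak there, 646 bp from 157391521 to 157392166. The other H3K9me3 peaks, from 157385630 to 157385967 and from 157387254 to 157387493, lay 5.18 and 3.66 kb away. The sides of the window held 0 peaks of H3K9me3 in KO cells and 0 of KDM4B in WT cells.

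**Figure D3:**
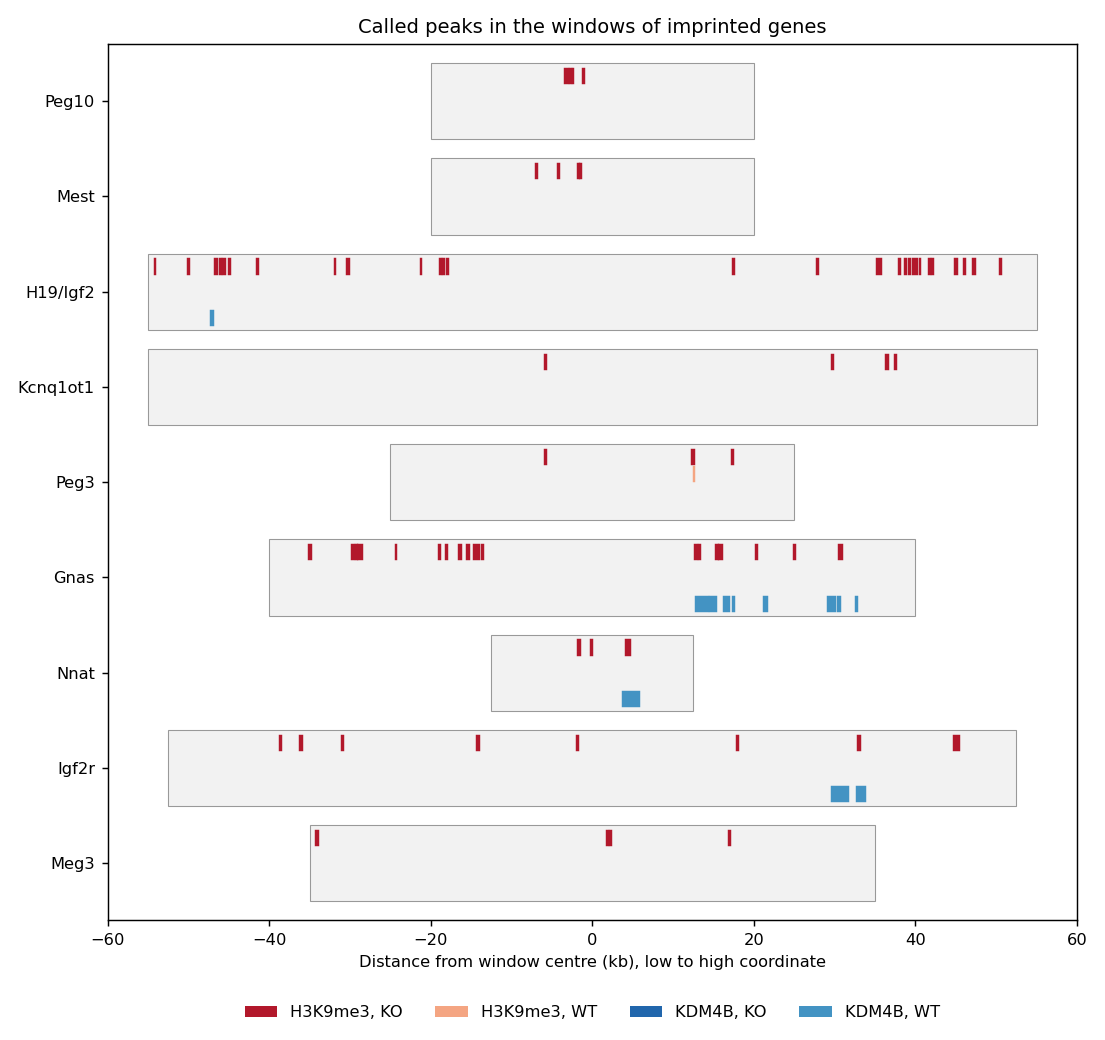
Called peaks in the 9 windows, as distance from the window centre in kb; grey boxes are the windows and coloured marks the peaks, to scale apart from a thin outline that keeps narrow peaks visible, with KO above WT for each antibody. The Gnas row shows 11 H3K9me3 peaks of KO cells on the left without KDM4B and 7 on the right among the 8 KDM4B peaks of WT cells.

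Seen over all windows, the KDM4B peaks met H3K9me3 of KO cells in 5 of 12 cases, or 41.7% (15.2 to 72.3%), while 22.8% of all KDM4B peaks of WT cells did so, a value inside that interval. Counting peaks within 1 kb of each other gave 9 of 12, or 75.0% (42.8 to 94.5%), beside 34.6% of the whole list by the same rule. Of the 12 peaks, 8 are neighbours at Gnas and not independent, so the interval is too narrow. None of the 12 overlapped H3K9me3 of WT cells, as compared with 0.0531% of the whole list. KDM4B peaks of the windows had a median width of 823 bp, beside 509 bp for their list, and 4 of 12 were 1 kb or wider, or 33.3% (9.92 to 65.1%) beside 19.9%.

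From the side of the mark, 6 of the 75 H3K9me3 peaks of KO cells overlapped KDM4B, or 8% (2.99 to 16.6%). The share of the whole KO list was 15.7%, a value inside that interval. Of these 6 peaks, 4 lay at Gnas, and without that window the count was 2 of 57, or 3.51%. Without the H19/Igf2 window, which held none of them, it was 6 of 48, or 12.5%. In the windows 57 of 75 peaks, or 76.0%, lay more than 10 kb from any KDM4B peak, beside 59.6% of all KO peaks. The median distance was 39.0 kb in the windows and 17.5 kb in the list. Many peaks of the windows are neighbours and not independent, and neither difference in distance was tested. All H3K9me3 peaks of Peg10, Mest, Kcnq1ot1, Peg3 and Meg3 were among the distant ones, and so were 20 of 27 at H19/Igf2, 11 of 18 at Gnas and 7 of 8 at Igf2r.

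**Figure D4:**
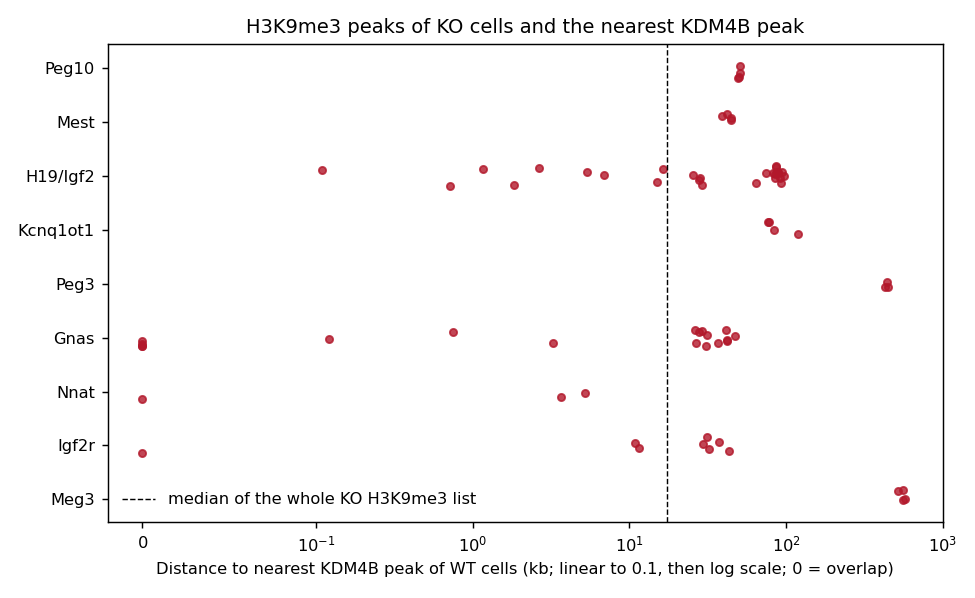
Distance in kb from each H3K9me3 peak of KO cells to the nearest KDM4B peak of WT cells, by window (axis linear to 0.1 kb, then log; 0 means overlap; vertical jitter only separates points). The dashed line is the median of the whole KO list, 17.5 kb; 6 points lie at 0, of which 4 are at Gnas.

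Windows with a KDM4B peak in WT cells held more H3K9me3 in KO cells than those without. The 4 with KDM4B held 56 peaks in 320 kb, or 175 per Mb (132 to 227), and the 5 without held 19 in 310 kb, or 61.3 per Mb (36.9 to 95.7). H19/Igf2 and Gnas supplied 45 of the 56. Igf2r and Nnat alone held 11 in 130 kb, or 84.6 per Mb (42.2 to 151), an interval that overlaps that of the windows without KDM4B. Genome tiles differed in the same direction at every length used. At 80 kb, tiles with a KDM4B peak averaged 50.4 H3K9me3 peaks of KO cells per Mb and tiles without one 9.98 per Mb. The windows have no replicate and their number is small, so this is a description of these libraries.

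Some peaks lay close to the borders of the windows. Within 10 kb of a border lay 14 H3K9me3 peaks of KO cells on the inner side and 6 on the outer side, and 4 and 1 KDM4B peaks of WT cells. The nearest inside was the H3K9me3 peak from 149750690 to 149750888 at H19/Igf2, 0.789 kb from the border, and the nearest outside was that from 149860749 to 149860974, 0.861 kb beyond the other border of the same window. At Igf2r a KDM4B peak of WT cells from 12976189 to 12976464 lay 6.33 kb outside.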

How the data were processed

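Bowtie aligned the reads, SAMtools handled the alignments, and the peak caller was MACS for KDM4B and MACS2 for the other antibodies, per the submitters' processing notes, which list mm9 and hg19. Of the 6 deposited lists, 5 hold positions only. Thresholds, controls, spike-in use and depth behind those 5 are not stated, and a peak number depends on each of them. The H3 WT table was made with MACS2 2.1.4 at a q-value threshold of 0.05 from 40420466 filtered tags, per the file headers. Its deposited pileup signal, fold enrichment, −log10 p-value and −log10 q-value columns were not used, because none of its peaks lay in a window. KDM4B antibodies of 2 suppliers appear in the design text and are not tied to libraries. The 2 input samples were not analysed here.

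The GRCm38.p6 gene table ends before the last peak on 9 of 21 chromosomes, so its coordinates were not used with the peaks. The windows are in mm9, in which they were defined. Start positions were made 1-based. Overlap meant at least 1 bp, and distances count the bases between peak ends. Tiles ran end to end from the first to the last peak of any list on each nuclear chromosome. Counts carry exact Poisson intervals and shares exact binomial (Clopper-Pearson) intervals. All genes of the set are named, single peaks by overlap, width or position, and every peak where a list had up to 6 in a window. Genes, windows and lists were chosen with earlier results of these data known, and runs of 5 kb after the peaks were seen. Counts were computed with Python 3.11.15, numpy 2.4.6 and scipy 1.17.1, tested on simulated data, and equal to those of bedtools 2.31.1 in 57 of 57 comparisons. The alternatives were membership by any overlap, windows 10 kb longer on each side, merging within 1 kb, overlap of 50% of the shorter peak, sharing within 1 kb, shifted tiles and autosomes only.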

Additional observations from a re-analysis of the deposited data

How the results depend on the processing

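Of 77 values recomputed under the alternatives, 66 stayed within 1.5 times the count or within the interval of the share as reported. Some of the 66 could not have changed, because leaving out a window or merging peaks cannot alter a count of 0. Leaving out H19/Igf2 or Gnas could not alter the 1 H3K9me3 peak of WT cells either, which lay at Peg3. Merging H3K9me3 peaks of KO cells within 1 kb lowered their number in the windows to 49, and leaving out the H19/Igf2 window, a choice made after seeing the data like that of leaving out Gnas, lowered it to 48. KDM4B peaks of WT cells numbered 4 without the Gnas window. The share of KDM4B peaks meeting H3K9me3 of KO cells became 75.0% when peaks within 1 kb counted as overlapping, and that of the whole KDM4B list 34.6%. On autosomes only, the share of tiles with an H3K9me3 peak of KO cells was 23.2% at 25 kb, 29.8% at 40 kb, 33.3% at 50 kb, 38.9% at 70 kb, 41.1% at 80 kb, 45.8% at 105 kb and 46.5% at 110 kb. The number of windows with a peak was the same under every alternative run, 9 for H3K9me3 in KO cells, 1 in WT cells, 0 for KDM4B in KO cells and 4 in WT cells. A stricter score for H3 peaks had no peak to act on. No paired analysis was possible because each group holds 1 library and no result comes from a test. Depth is unknown for all lists but H3 WT, so a peak missing from a list was not detectable there at its depth and threshold, which does not show that the mark was absent.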
